A study of Mus musculus with 18 samples.

Results

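P2X receptors are the channels through which extracellular ATP is sensed as a fast signal, and pannexin 1 forms a membrane channel through which cells release ATP. The 8 genes described here are *P2rx1*, *P2rx2*, *P2rx3*, *P2rx4*, *P2rx5*, *P2rx6* and *P2rx7*, which encode the P2X subunits, and *Panx1*, which encodes pannexin 1. They were taken by symbol from the 55573 Ensembl genes of the count table, whatever their values, and all 8 had counts in all 18 samples. The samples are dorsal horns of the spinal cord (DHSC), the first relay of pain signals in the central nervous system, taken on the injected side from adult C57BL/6J mice 2 h after 2% formalin was injected into a hind paw. Females were of 2 kinds, F1/proestrus (6 mice) and F2/metestrus (6 mice), and were compared with each other and with 6 males. F1 and F2 name 2 time courses of nocifensive behavior, with a short and a long pause between the phases of the response, and proestrus and metestrus are stages of the estrus cycle read from vaginal smears, so in these samples behavior and cycle stage cannot be told apart. All groups received formalin, and the tissue was bulk RNA of lumbar segments.

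ATP that leaves damaged or active cells opens P2X receptors, which are trimers that pass cations. P2X3, alone or together with P2X2, is known from nociceptive sensory neurons of the dorsal root ganglia, whose central endings reach the dorsal horn. P2X4 and P2X7 are known in the spinal cord above all from microglia, where P2X4 is linked to the release of BDNF and P2X7, which needs much ATP, to the NLRP3 inflammasome and the release of interleukin-1β. In rodents the part of spinal P2X4 in pain has been linked mainly to males, which is the background for comparing these genes between the sexes.

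The total count per sample ranged from 73590509 to 125724156, and 3 counts, taken as the smallest signal this depth can show, corresponded to 0.0240 to 0.0407 CPM. Levels are in CPM, the usual scaling of counts by library size, here with the size corrected by the TMM method. The 4 defining transcription factors of dorsal horn neurons (*Lmx1b*, *Tlx3*, *Lbx1* and *Prrxl1*) summed to between 44.5 and 80.0 CPM, and each of them had counts in all 18 libraries. The 80.0 CPM belong to F1/proestrus 5, where *Prrxl1* (55.8 CPM) and *Tlx3* (7.73 CPM), which sensory ganglion neurons also express, were highest, whereas *Lmx1b* (9.13 CPM) and *Lbx1* (7.43 CPM) lay below the medians of the other 17 libraries. In 1 library, F1/proestrus 5, 8 markers of sensory ganglion neurons summed to 483 CPM, against 2.09 to 4.81 CPM in the other 17 libraries. Male 5 had the highest sum of 6 Schwann cell markers, 2510 CPM, against 776 to 1630 CPM in the other 17. Results that rest on either library are given with and without it. The library numbers of the count table form 2 series of 9, each holding 3 samples of every group, and values within a series are given where their direction turns.

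*P2rx7* and *P2rx4* are neighbours on the plus strand of chromosome 5 of GRCm38. *P2rx7* spans 122643911 to 122691432 and *P2rx4* spans 122707544 to 122729738, with 16111 bp between the end of the former and the start of the latter. The log2 CPM of this pair correlated over the 18 samples after the mean of each library series was taken out (r = 0.75). What regulates the pair was not tested. The 250 bases before the RefSeq start of each gene are shown because of that correlation. They were taken from RefSeq on GRCm38.p6, plus strand, 5′ to 3′, with GC boxes (GGGCGG, or CCGCCC for the other strand) in capitals.
P2rx7, chr5:122643677-122643926: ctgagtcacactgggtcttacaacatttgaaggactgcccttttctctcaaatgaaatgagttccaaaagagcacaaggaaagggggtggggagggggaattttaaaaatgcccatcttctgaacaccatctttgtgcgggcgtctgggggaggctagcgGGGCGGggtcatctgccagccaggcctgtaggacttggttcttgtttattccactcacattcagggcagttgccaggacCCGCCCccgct
P2rx4, chr5:122707294-122707543: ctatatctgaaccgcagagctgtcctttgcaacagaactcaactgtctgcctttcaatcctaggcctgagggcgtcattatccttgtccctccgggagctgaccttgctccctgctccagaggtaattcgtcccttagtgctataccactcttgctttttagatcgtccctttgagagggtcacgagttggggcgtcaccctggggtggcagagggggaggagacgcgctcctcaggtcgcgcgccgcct
The *P2rx7* window held 2 GC boxes and 6 CpG dinucleotides. Its last 16 bases, which include the second GC box, lie in an exon of the GENCODE annotation. The *P2rx4* window held 0 GC boxes and 13 CpG dinucleotides. Of 32851 promoter windows of this length, 32.7% held a GC box, and the median window had 6 CpG dinucleotides. RefSeq promoter entries were matched for 5 of the 8 genes.

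The members fell into an abundant and a scarce set. To compare genes, CPM were divided by the length of all annotated exons of the gene in kilobases. On this scale *P2rx5*, whose receptor carries only weak currents, had the highest mean level over the 18 samples, 9.39 ± 0.972 CPM per kb (SD). It was followed by *P2rx4* with 4.12 ± 0.263, *Panx1* with 3.98 ± 0.513, *P2rx6* with 3.88 ± 0.562 and *P2rx7* with 2.79 ± 0.254 CPM per kb. *P2rx3* had a median of 1.27 CPM, and its mean per kb was 0.441 ± 0.0880 without F1/proestrus 5 and 1.01 ± 2.43 with it. *P2rx2* had 0.409 ± 0.127 and *P2rx1*, known from smooth muscle and platelets, 0.0793 ± 0.0748 CPM per kb.

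The order of neighbours was partly beyond the spread between samples. *P2rx5* was above *P2rx4* per kb of exon in 18 of 18 libraries, and *P2rx4* was above *P2rx7* in 18 of 18. *P2rx4*, *Panx1* and *P2rx6* lay within each other's spread, with *P2rx4* above *Panx1* in 13 libraries and *P2rx6* above *Panx1* in 9. *P2rx2* exceeded *P2rx3* in 7 of 18 libraries, so these neighbours were not separated either on this scale.

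The length used decides who leads. Per kb of the longest protein-coding transcript, 2702 bp for *P2rx4* in place of 7025 bp of exons, *P2rx4* had the highest mean, 10.7 CPM per kb, and was above *P2rx5*, at 9.39 CPM per kb, in 15 of 18 libraries. On this scale *P2rx6* had 6.61, *Panx1* 4.18 and *P2rx7* 3.37 CPM per kb. *P2rx3* was above *P2rx2* in 16 of 18 libraries on this scale, against 11 of 18 per kb of exon. *P2rx4* was above *P2rx7* in 18 of 18 libraries by either length, and *P2rx1* was lowest in all 18 by either.

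**Figure D1:**
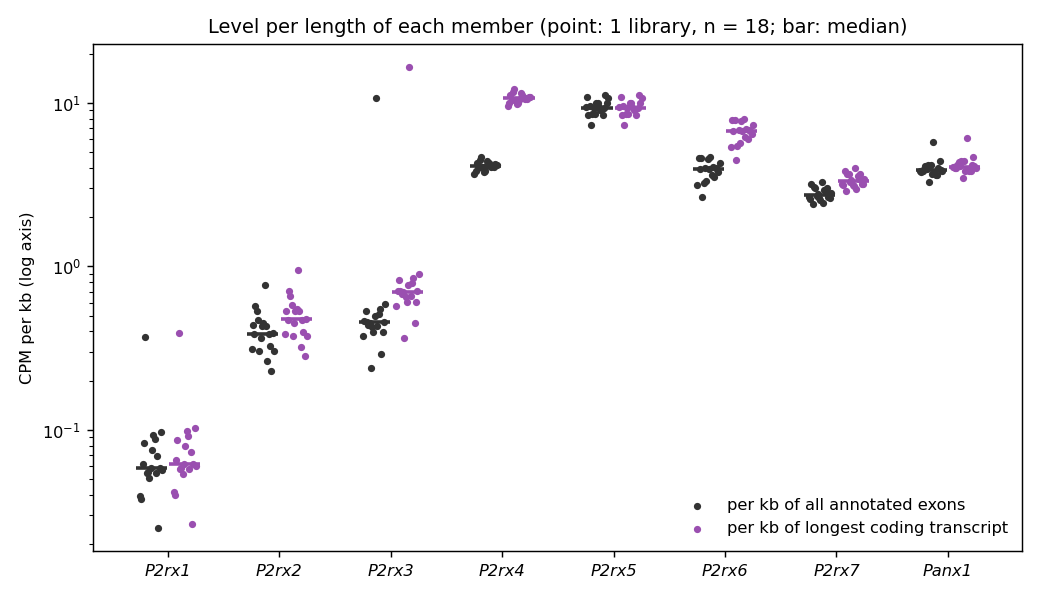
Level of each member in CPM per kb (log axis), with 1 point per library (n = 18) and a bar at the median, per kb of all annotated exons (black) and per kb of the longest coding transcript (purple). *P2rx4* moves from a mean of 4.12 to 10.7 CPM per kb between the scales, while *P2rx5* stays at 9.39, and single points of *P2rx1* and *P2rx3* lie far above the rest.

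*P2rx4*, of the pair on chromosome 5, was nearly level across the groups. Its lowest, median and highest values were 25.7, 29.2 and 32.8 CPM in males, 26.4, 28.5 and 31.0 CPM in F1/proestrus and 28.4, 28.9 and 29.5 CPM in F2/metestrus. The 3 ranges lie within each other, and the F2/metestrus samples lie closest together. Over the 18 samples the SD of its log2 CPM was 0.09, against a median of 0.13 over the 11357 tested genes with at least 10 CPM.

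For *P2rx7* the lowest, median and highest values were 14.3, 16.9 and 19.0 CPM in males, 14.6, 15.9 and 19.7 CPM in F1/proestrus and 15.7, 16.9 and 18.1 CPM in F2/metestrus. These ranges overlap as well, and the highest value belongs to F1/proestrus 5, at 1.22 times the median of the other 17 libraries. The ratio of *P2rx4* to *P2rx7* in CPM was 1.75 ± 0.135 (SD, n = 6) in males and 1.75 ± 0.147 (SD, n = 12) in females. The smallest ratio was 1.59 in males and 1.58 in females, and the largest 1.96 and 2.07. The microRNA gene *Mir8115* shares 119 bp with the exons of *P2rx7*, on the same strand.

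*Panx1*, the ATP release channel, is on the minus strand of chromosome 9, from 15002128 to 15045478. It had 22.9, 23.4 and 24.8 CPM as the lowest, median and highest values in males, 19.9, 23.8 and 34.8 CPM in F1/proestrus and 21.9, 23.3 and 26.6 CPM in F2/metestrus. The value of 34.8 CPM is that of F1/proestrus 5, and the other 17 libraries lie between 19.9 and 26.6 CPM. With F1/proestrus 5 and male 5 left out, the SD of its log2 CPM was 0.10, and with them 0.17.

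*P2rx5* (chromosome 11, 73160421 to 73172685, plus strand) had 17.6, 21.4 and 26.1 CPM as the lowest, median and highest values in males, 20.6, 22.4 and 24.0 CPM in F1/proestrus and 20.1, 23.0 and 26.9 CPM in F2/metestrus. *P2rx6*, whose subunit hardly forms a channel by itself, lies on chromosome 16 from 17561885 to 17577800 and shares 554 bp of its exons (13.9%) with *Slc7a4* on the other strand. It had 10.5, 14.3 and 18.4 CPM in males, 13.3, 15.8 and 18.7 CPM in F1/proestrus and 14.1, 15.9 and 17.1 CPM in F2/metestrus. For both genes the lowest of the 18 values was that of male 5, and the ranges of all groups overlapped. Whether the counting used strand is not given in the sources used here, so reads of *P2rx6* and *Slc7a4* in the shared part cannot be told apart.

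*P2rx2* (chromosome 5, 110339812 to 110343212, minus strand) was scarce, with 54 to 226 counts. Its lowest, median and highest values were 0.809, 1.17 and 1.48 CPM in males, 0.783, 1.11 and 1.98 CPM in F1/proestrus and 0.594, 0.812 and 1.002 CPM in F2/metestrus. F2/metestrus lay lowest but overlapped both other groups, and the highest value, 1.98 CPM, was again that of F1/proestrus 5.

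*P2rx3*, the receptor of nociceptive sensory neurons, lies on the minus strand of chromosome 2 from 84998583 to 85037462 and shares 51 bp of exon (1.83%) with *Ssrp1* on the other strand. *Ssrp1* had 177227 counts over all libraries. As for *P2rx6*, reads of the 2 genes in the shared part cannot be told apart. *P2rx3* had 1.04, 1.27 and 1.495 CPM as the lowest, median and highest values in males and 0.815, 1.35 and 1.63 CPM in F2/metestrus. In F1/proestrus these values were 0.664, 1.19 and 30.0 CPM. F1/proestrus 5 alone had 3426 counts of *P2rx3*, whereas the other 17 libraries had 73 to 166. Its level was 23.7 times the median of the other libraries and 18.4 times the highest of them.

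*P2rx1* (chromosome 11, 72999103 to 73015200, plus strand) was close to the floor, with 6 to 28 counts in 17 libraries and 87 counts in male 5. The exact Poisson interval of the latter count is 69.7 to 107 at 95%, which covers counting error only. Its lowest, median and highest values were 0.0996, 0.153 and 0.968 CPM in males, 0.133, 0.176 and 0.245 CPM in F1/proestrus and 0.0661, 0.152 and 0.254 CPM in F2/metestrus. All groups overlap, and male 5 stands at 6.29 times the median of the other 17 libraries.

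**Figure D2:**
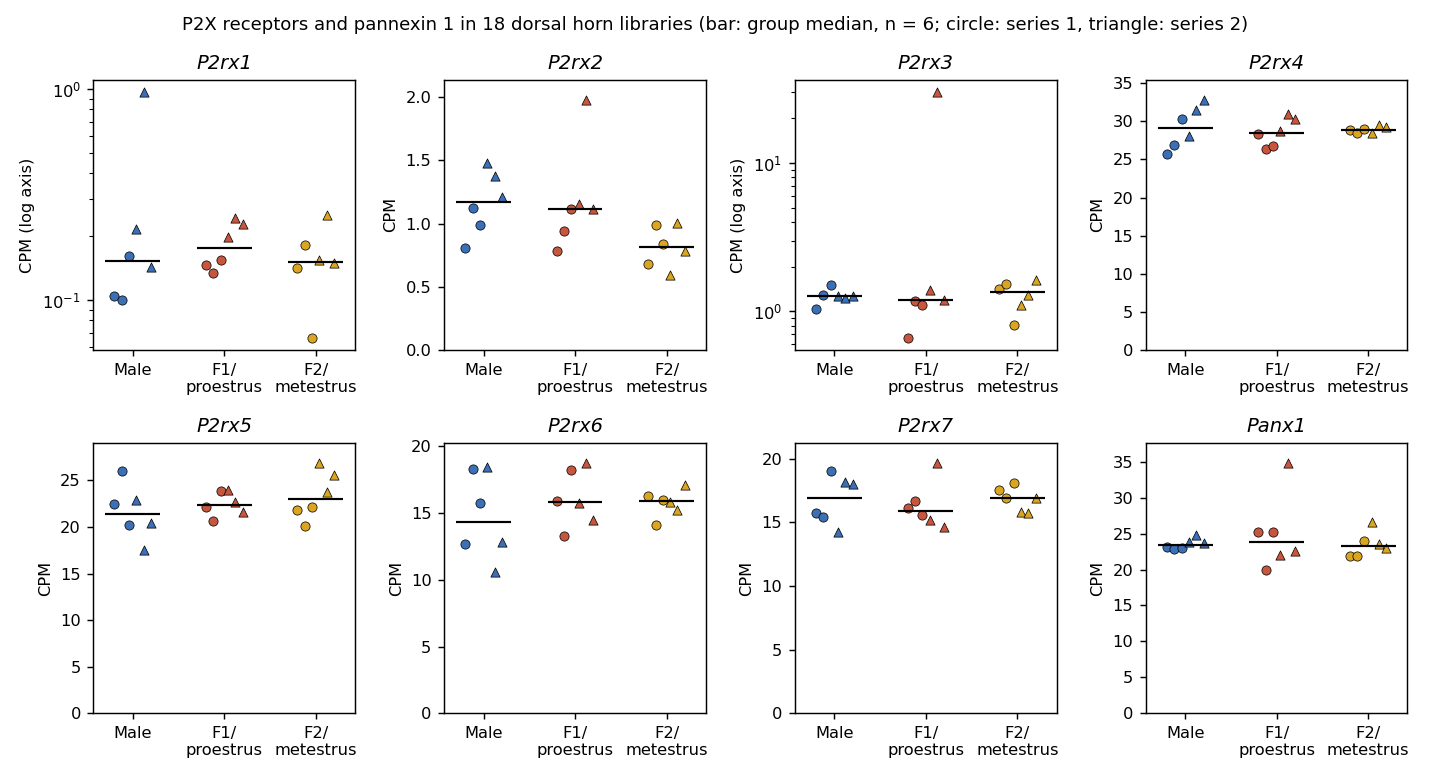
CPM of each member in the 18 libraries by group (n = 6 each), with a bar at the group median, circles for library series 1 and triangles for series 2, and log axes for *P2rx1* and *P2rx3* only. *P2rx4* stays between 25.7 and 32.8 CPM, and single libraries stand apart for *P2rx1* (0.968 CPM, male 5) and for *P2rx2*, *P2rx3* and *Panx1* (1.98, 30.0 and 34.8 CPM, F1/proestrus 5).

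The library in which *P2rx3* stood apart also held the other transcripts of sensory ganglion neurons. In F1/proestrus 5 the sodium channel genes *Scn10a* and *Scn11a* had 125 and 57.2 CPM, *Avil* 132 CPM, *Trpv1* 32.2 CPM, *Mrgprd* 32.9 CPM, *Prdm12* 28.8 CPM and *Mrgpra3* 2.04 CPM. All 8 of 8 markers were highest in this library. In the other 17 libraries *Scn10a* was at 0 in 5 and at most 0.153 CPM, *Mrgprd* was at 0 in 10 and *Mrgpra3* at 0 in 14. *P2rx3* exceeded *Scn10a* in all of those 17 libraries, whereas in F1/proestrus 5 *Scn10a* was above it.

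The part of such RNA in the level of *P2rx3* was not tested beyond these values. Over all 18 samples log2 CPM of *P2rx3* and the mean log2 CPM of the 8 markers had Pearson's r = 0.97 (permutation p = 0.00942, adjusted p = 0.0141 over the 3 relations computed) and Spearman's rho = 0.46 (permutation p = 0.0513, adjusted 0.0769). Without F1/proestrus 5 and male 2, the samples farthest from the median, r was 0.35 (permutation p = 0.18, adjusted 0.270), so the pooled relation rests on those samples. In series 1, which holds male 2 but not F1/proestrus 5, r was 0.77 over 9 samples (exact permutation p = 0.0161, adjusted 0.0483). Spearman's rho there was 0.77 (exact permutation p = 0.0214, adjusted 0.0642), which did not pass the threshold.

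Between F2/metestrus and F1/proestrus 0 members passed the threshold (edgeR's quasi-likelihood test, FDR of 5%), and neither did any other of the 24042 genes tested (0.0% called). At an unadjusted p under 0.05 there were 2 of 8 members, *P2rx2* and *P2rx3*, against 2.48% of all genes tested. DESeq2 called 2 genes, neither of them a member. No member had groups that did not overlap, which held for 0.108% of all genes. The median log2 fold change of the members was -0.06, and that of all genes was 0.00 to 2 decimals.

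For *P2rx3* the fit gave F2/metestrus a log2 fold change of -2.19 relative to F1/proestrus, with a standard error of 0.859 and a 95% interval of -4.03 to -0.36. The unadjusted p of edgeR was under 0.05 and the adjusted p was 1.0. Without F1/proestrus 5 it was 0.23, so its direction turned on that library. In series 1 alone it was 0.36, and in series 2, which holds the library, -3.02. DESeq2 gave this gene no p-value.

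*P2rx2* was lower in F2/metestrus by the fit, with 0.815 ± 0.164 CPM (SD, n = 6) against 1.18 ± 0.415 CPM (SD, n = 6), but did not pass the threshold. Its log2 fold change was -0.54, with a standard error of 0.211 and an interval of -0.99 to -0.09, and the adjusted p of edgeR was 1.0. Without F1/proestrus 5 the log2 fold change was -0.33, with an interval of -0.70 to 0.04. It was -0.18 in series 1 and -0.84 in series 2.

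The intervals of the abundant members were narrow. For *P2rx4* the log2 fold change between the female groups was 0.01 (-0.10 to 0.13), for *P2rx7* 0.04 (-0.12 to 0.20), for *P2rx5* 0.06 (-0.10 to 0.21) and for *P2rx6* -0.03 (-0.21 to 0.15). *Panx1* had -0.09 (-0.32 to 0.15), and 0.03 without F1/proestrus 5. For the scarce *P2rx1* the interval of -0.87 to 0.41 around -0.23 leaves differences in either direction undetectable at this depth.

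Between males and all 12 females 0 members passed an FDR of 5%, against 49 of 24862 genes (0.197% called). DESeq2 called 166 genes, with 0 members among them, and gave *P2rx1* no p-value. At an unadjusted p under 0.05 there were 0 of 8 members, against 9.72% of all genes, and 0 members had groups that did not overlap, against 0.125% of all genes. The median log2 fold change of males against females was -0.01 over the members and 0.00 over all genes, and the median size of the change was 0.10 and 0.09.

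*P2rx4* had a log2 fold change of 0.02 in males against females, with a 95% interval of -0.08 to 0.13 (edgeR, adjusted p = 0.904), from 29.2 ± 2.79 CPM (SD, n = 6) and 28.8 ± 1.28 CPM (SD, n = 12). *P2rx7* also had 0.02, with an interval of -0.12 to 0.16 (adjusted p = 0.938), from 16.8 ± 1.88 and 16.6 ± 1.39 CPM. For *Panx1* the log2 fold change was -0.04 (-0.21 to 0.13, adjusted p = 0.893). Differences between the sexes of more than 0.16 on the log2 scale are thus outside the intervals of *P2rx4* and *P2rx7*. This holds for RNA in whole dorsal horn, where fewer cells of a type and less RNA per cell cannot be told apart.

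*P2rx5* had a log2 fold change of -0.09 (-0.24 to 0.07, adjusted p = 0.706) in males against females, and *P2rx6* of -0.11 (-0.32 to 0.10, adjusted p = 0.734). Within the series these were 0.06 and -0.24 for *P2rx5*, and -0.02 and -0.21 for *P2rx6*. Markers of motor neurons, whose cell bodies lie in the ventral horn, varied across the same libraries, although *Chat* and *Slc5a7* also mark cholinergic interneurons and *Isl1* also marks sensory ganglion neurons. The 4 markers *Chat*, *Mnx1*, *Slc5a7* and *Isl1* summed to 12.1 CPM in male 5, 17.2 in F1/proestrus 2, 21.6 in F1/proestrus 6 and 24.3 in male 6, against 32.7 to 71.4 CPM in the other 14 libraries. *P2rx6* had 10.5, 13.3, 14.5 and 12.8 CPM in these 4 libraries, in that order, and 12.6 to 18.7 CPM in the other 14. *P2rx5* had 17.6 to 21.6 CPM in the 4 libraries and 20.1 to 26.9 CPM in the others. In F1/proestrus 5, the library with sensory ganglion markers, *Isl1* had 11.97 of the 68.8 CPM of the motor neuron sum, against 1.19 to 2.69 CPM in the other 17 libraries. The part of motor neuron RNA in these levels was not tested.

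*P2rx3* had a log2 fold change of -1.52 in males against females (standard error 0.780, interval -3.14 to 0.10, adjusted p = 0.533), which without F1/proestrus 5 and male 5 was 0.06 (-0.29 to 0.41). *P2rx1* had 0.70 (standard error 0.401, interval -0.14 to 1.53, adjusted p = 0.573), and without these 2 libraries -0.21 (-0.79 to 0.38), so the direction of both genes was set by 1 library each. Series 1, which holds neither library, gave 0.17 for *P2rx3* and -0.19 for *P2rx1*. Series 2, which holds both, gave -2.29 (-4.87 to 0.29) for *P2rx3* and 1.10 (0.01 to 2.20) for *P2rx1*, with adjusted p of 0.467 and 0.421. *P2rx2* had 0.22 (-0.19 to 0.63, adjusted p = 0.725). Against F2/metestrus alone the log2 fold change of *P2rx2* in males was 0.50 (0.13 to 0.88, adjusted p = 0.460), and against F1/proestrus alone -0.03.

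In male 5, where *P2rx1* stood apart, the 5 smooth muscle markers summed to 76.8 CPM, against at most 74.7 CPM elsewhere, and the 5 platelet markers to 34.4 CPM, against at most 31.2 CPM. Only some of each list were highest in male 5. These were *Acta2* (38.8 CPM) and *Tagln* (21.6 CPM), but not *Myh11*, *Cnn1* or *Des*, and *Pf4* (3.24 CPM) and *Gp1bb* (26.9 CPM, against at most 26.1 CPM elsewhere), but not *Ppbp*, *Itga2b* or *Gp9*. In males against females a log2 fold change above 0 was found for 6 of 6 Schwann cell, 5 of 5 smooth muscle, 6 of 6 skeletal muscle and 4 of 5 platelet markers. It was found for 7 of 8 listed neutrophil markers, and the other, *Ly6g*, had no fold change. Of other lists, it was found for 0 of 5 red blood cell, 0 of 4 motor neuron, 1 of 5 oligodendrocyte and 1 of 3 endothelial markers. It was also found for 4 of 4 dorsal horn neuron and 3 of 5 astrocyte markers. At an FDR of 5% 1 Schwann cell, 1 skeletal muscle and 1 neutrophil marker were called, against 0.197% of all genes. Of the smooth muscle and platelet markers 0 were called. The part of any of these cells in the level of *P2rx1* was not tested.

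**Figure D3:**
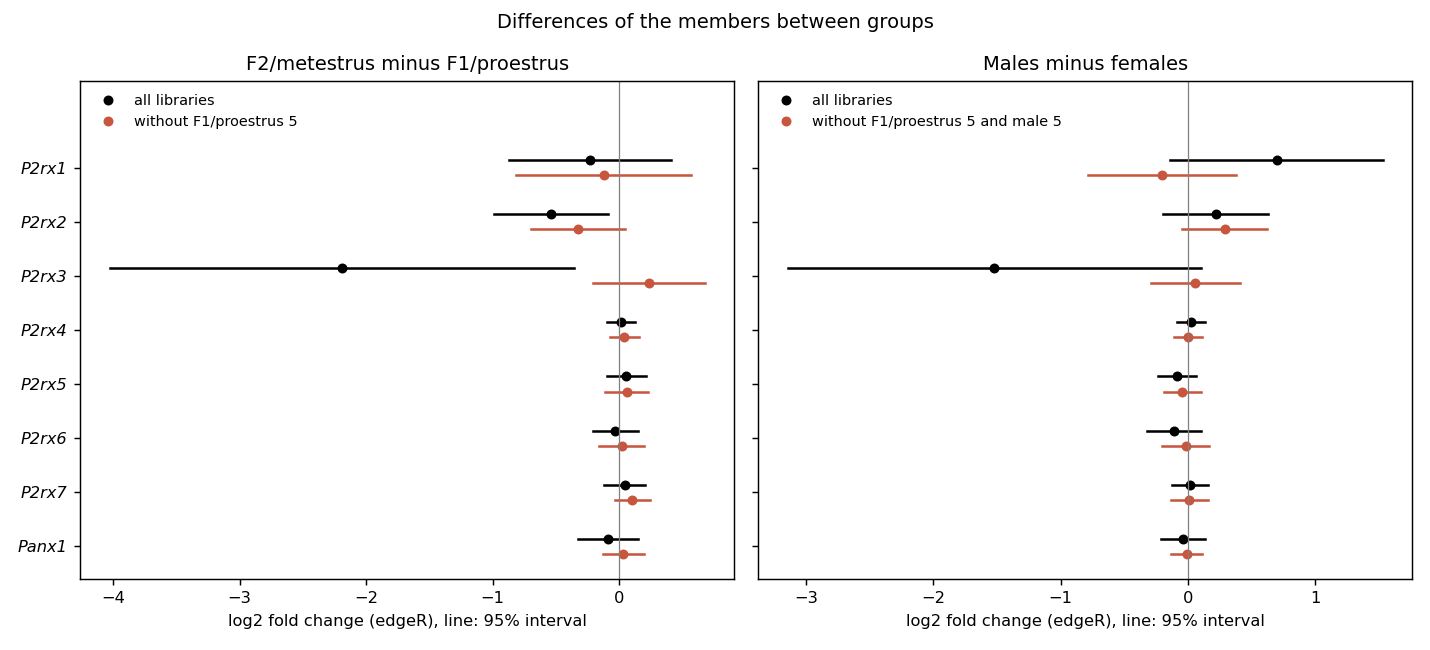
Log2 fold change of each member (edgeR, points) with its 95% interval (lines) for F2/metestrus minus F1/proestrus on the left and males minus females on the right, with all libraries (black) and without the libraries that stand apart (red). The intervals of *P2rx4* stay within -0.11 and 0.16 in both comparisons, and the points of *P2rx3* move from -2.19 to 0.23 and from -1.52 to 0.06.

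Microglial markers were set beside *P2rx4* and *P2rx7*. The 12 microglial markers summed to 418 to 470 CPM in males and 376 to 432 CPM in females. Of the 12, 10 had a log2 fold change above 0 in males, while 0 passed an FDR of 5% in the main edgeR fit. *Csf1r* came nearest, with a log2 fold change of 0.20 (edgeR, adjusted p = 0.0548), and the paper names it among its male-enriched genes. The 12 markers were not looked up under the other settings. Log2 CPM of *P2rx4* and the mean log2 CPM of these markers had r = 0.71 over the 18 samples (permutation p = 0.00118, adjusted 0.00354) and rho = 0.67 (permutation p = 0.00304, adjusted 0.00912). Without F1/proestrus 3 and male 5, the samples farthest from the median, r was 0.63 (permutation p = 0.00912, adjusted 0.0274). Spearman's rho was then 0.56 (permutation p = 0.0260, adjusted 0.0779), which did not pass the threshold. Within series 1 r was 0.57 (exact permutation p = 0.109) and within series 2 0.53 (exact permutation p = 0.151), each over 9 samples. The relation thus did not pass the threshold within a series.

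For *P2rx7* the same relation had r = 0.22 (permutation p = 0.372) and rho = 0.20 (permutation p = 0.421), and r = 0.03 without the same 2 samples (permutation p = 0.918). It was r = 0.68 within series 1 (exact permutation p = 0.0474, adjusted 0.0711) and r = 0.23 within series 2 (exact permutation p = 0.555). The difference between *P2rx4* and *P2rx7* in this relation was not tested.

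**Figure D4:**
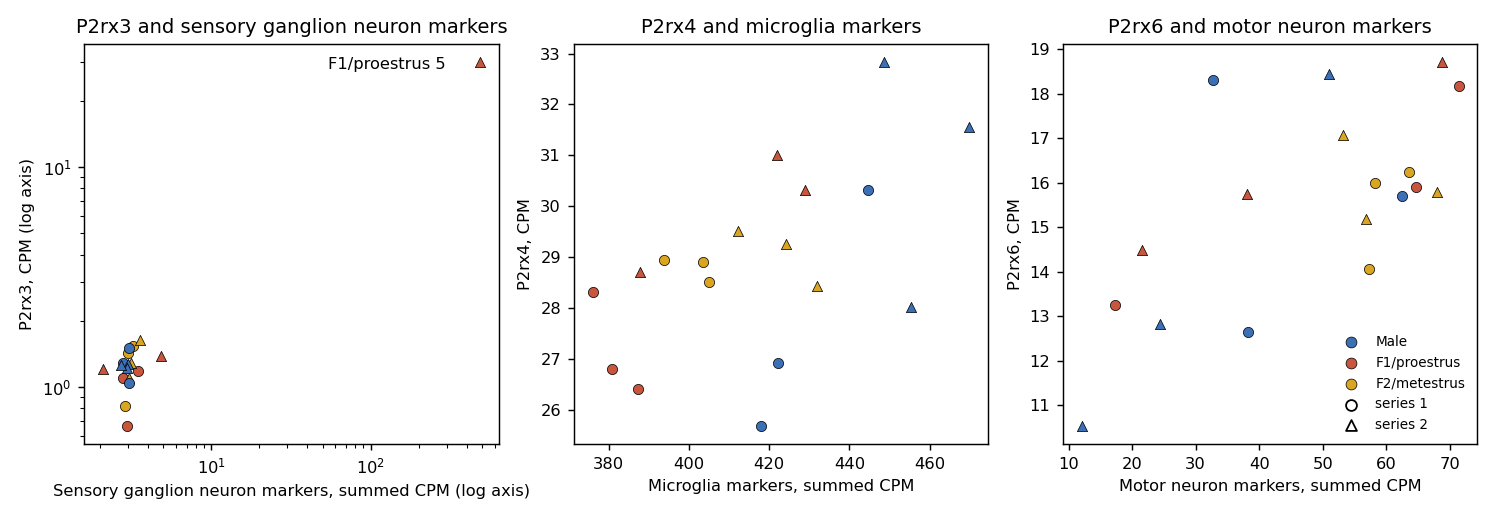
CPM of *P2rx3*, *P2rx4* and *P2rx6* in each library against the summed CPM of sensory ganglion neuron, microglia and motor neuron markers, colored by group, with circles for series 1 and triangles for series 2 (log axes in the left panel only, and axes that do not start at 0 in the others). F1/proestrus 5 lies alone at 483 and 30.0 CPM in the left panel, males reach the highest microglial sums in the middle panel (up to 470 CPM), and the lowest *P2rx6* value, 10.5 CPM, falls on the lowest motor neuron sum, 12.1 CPM, in the right panel.

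The genes whose log2 CPM followed each member most closely over the 18 samples, after the mean of each library series was taken out, were looked up among 17763 genes of at least 1 CPM. These correlations are descriptions over samples that share library series and dissection, with no p. For *P2rx4* they were *Siah1a* (r = 0.83), *Vps25* and *Abhd17c* (both 0.76), and *P2rx7* came next at rank 4 (0.75). For *P2rx7* they were *Mmp2*, *Nid2* and *Frzb*, with r of 0.86, 0.85 and 0.84, and *P2rx4* was at rank 34 (0.75).

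For *P2rx5* the closest genes were *Unc5a*, *Dnm1* and *4933406B15Rik*, with r of 0.92, 0.91 and 0.88, and *P2rx6* had r = 0.72 with it. *P2rx6* itself was followed most closely by *Sec31a*, *Itga3* and *Akap2*, with r of 0.94, 0.93 and 0.93. *Panx1* had *Card19*, *Rgs4* and *Sncg*, with r of 0.92, 0.89 and 0.88, which fell to 0.80, 0.70 and 0.66 without F1/proestrus 5. *P2rx2* had *Dusp5*, *Txn1* and the neuropeptide gene *Gal*, with r of 0.83, 0.82 and 0.81, and 0.76, 0.74 and 0.79 without F1/proestrus 5. For *P2rx3* the closest genes were *Pirt*, *Dgkh* and *Nedd4l*, each with r = 0.95, which fell to 0.60, 0.63 and 0.72 without F1/proestrus 5.

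In the main fits the other genes of ATP signaling did not pass the threshold either. Of 19 genes for ATP release and storage 17 were tested, and 0 rose and 0 fell in either comparison at an FDR of 5%. Between the female groups 1 of them had an unadjusted p under 0.05, *Calhm6* with a mean of 0.234 CPM and a log2 fold change of 1.97 in F2/metestrus (edgeR, adjusted p = 1.0). Among the most abundant of them were the connexins *Gja1* (544 CPM) and *Gjb6* (218 CPM) and *Lrrc8d* (64.8 CPM), a subunit of the volume-regulated anion channel. Their adjusted p between the sexes were 0.953, 0.379 and 0.720 in edgeR, and 2 of the 17 genes had an unadjusted p under 0.05, against 9.72% of all genes.

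Of 8 P2Y receptors, the G protein-coupled receptors for nucleotides, 6 were tested and 0 rose or fell at an FDR of 5%. *P2ry1*, an ADP receptor and the most abundant of them, came nearest, with 19.4, 23.3 and 25.6 CPM as the lowest, median and highest values in males and 25.3, 30.1 and 34.2 CPM in females. The highest male lay just above the lowest female, and the log2 fold change of males against females was -0.34 with a standard error of 0.0728 (edgeR, adjusted p = 0.0548). It was -0.34 within series 1 and -0.35 within series 2. Over the other settings its adjusted p ranged from 0.00258 with DESeq2 to 0.507 for males against F1/proestrus alone, and it passed the threshold in 3 of 10 of them and in 4 of 18 fits that left out 1 sample. These 3 were DESeq2, which had no series or replicate term, and the edgeR fits with such a term. In edgeR the adjusted p was 0.0204 with the library series as a covariate and 0.0245 with the replicate number as a block. The count of 0 P2Y receptors called thus holds for the main edgeR fit but not for every setting. A further gene with an unadjusted p under 0.05 was *P2ry6*, a UDP receptor, with a log2 fold change of 0.37 (adjusted p = 0.301), which makes 2 of the 6 tested. *P2ry12*, a receptor of homeostatic microglia, had a mean of 17.4 CPM (adjusted p = 0.925), *P2ry13* 7.88 CPM (0.882) and *P2ry14* 6.15 CPM (0.712).

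Of 23 genes known to act before or after P2X4 and P2X7, 22 were tested between the female groups and 23 between the sexes, and 0 rose or fell in either. The most abundant were *Cx3cl1* (399 CPM), *Ntrk2* (385 CPM), which encodes the BDNF receptor, *Fyn* (195.8 CPM) and *Itgb1* (126 CPM), with adjusted p between the sexes of 0.841, 0.620, 0.998 and 0.783. Between the sexes 4 of the 23 had an unadjusted p under 0.05, against 9.72% of all genes. They were *Nlrp3*, the inflammasome sensor (log2 fold change -0.70 in males, adjusted p = 0.323), *Ctss*, a microglial protease (0.24, adjusted p = 0.294), *Bdnf* (0.23, adjusted p = 0.433) and *Il1a* (0.44, adjusted p = 0.453). The median log2 fold change of males against females was 0.08 over these 23 genes, -0.06 over the ATP release genes and -0.05 over the P2Y receptors, against 0.00 over all genes.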

How the data were processed

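The authors deposited raw counts of reads on the exons of 55573 Ensembl genes for 18 samples. Reads were uniquely mapped to mm10 with Subread and counted with featureCounts, and the submitters' processing notes name Subread 2.0.3. The labels describe SMART-Seq and Nextera XT libraries, the methods TruSeq libraries. Of a deposited DESeq2 table only the gene symbols were used, and its fold changes and p-values were left out. GENCODE vM21 (GRCm38) held 55394 of the gene IDs and gave the exon lengths.

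Groups were taken from the sample titles. F2/metestrus was compared with F1/proestrus among 12 females, and males with all females among 18 samples, with edgeR 4.0.16 in R 4.3.3 (filterByExpr with a minimum count of 10 and total of 15, TMM, quasi-likelihood test, Benjamini-Hochberg adjustment over all genes tested, FDR of 5%). Standard errors were obtained from the F statistic and the log2 fold change. The p-values measure the spread between these samples, taken as 1 mouse each. CPM came from TMM library sizes of all 18 samples, log2 CPM for scores and correlations had a prior count of 2, and correlations were tested with 100000 permutations or, for 9 samples, exactly. Counting intervals and floors cover counting error only.

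The members, the lists of pathway and marker genes and the rule for named genes (all members, the 3 genes closest to each member of at least 1 CPM, and of each pathway list the 4 most abundant genes beside any past the threshold) were chosen with earlier results of these data known. *Calhm6*, *P2ry6*, *Nlrp3*, *Ctss*, *Bdnf* and *Il1a* were named after their values were seen. Some genes that this rule or these lists hold are not reported here. Calhm4, Calhm5 and Calhm6 were matched by the older symbols Fam26d, Fam26e and Fam26f. Alternatives were DESeq2 1.42.0, RLE size factors, no filter, all groups in 1 fit, the males against either female group, the replicate number as a block, the library series alone or as a covariate, and each sample left out. Leaving out F1/proestrus 5 with male 5, and the longest transcript as length, were chosen after seeing the data. The split at the 4 lowest motor neuron sums was not fixed beforehand. On data simulated from the means and library sizes of these samples, edgeR recovered 77.5% of 200 genes changed 1.5-fold between the female groups (95.5% at 2-fold). Between the sexes it recovered 74.5% (96.5% at 2-fold). The simulated data had no library series, no library that stands apart and a dispersion set by mean level alone. The changed genes lay above a minimum level that *P2rx1* does not reach. The shares thus do not carry over to *P2rx1* or to genes moved by a single library.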

Additional observations from a re-analysis of the deposited data

Results flagged for a closer look

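In 4 of the 24 sets of 6 values tested (8 genes in 3 groups), the extreme sample lay farther from its nearest neighbour than Dixon's 95% critical value of 0.625 allows. The nominal rate of about 1 in 20 holds for independent normal values, and genes of the same library are not independent. The share of such sets over all genes was not computed, so the count does not show an excess particular to these members. *P2rx3* in F1/proestrus 5 had 30.0 CPM, against 0.664 to 1.39 CPM in the other F1/proestrus samples. *Panx1* in the same library had 34.8 CPM, against 19.9 to 25.2 CPM, and *P2rx2* had 1.98 CPM, against 0.783 to 1.16 CPM. F1/proestrus 5 is also the library whose sensory ganglion neuron markers summed to 483 CPM. *P2rx1* in male 5 had 0.968 CPM, against 0.0996 to 0.217 CPM in the other males, in the library with the highest sum of Schwann cell markers, 2510 CPM. The part of other cells in these values was not tested.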

How the results depend on the processing

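No member passed an FDR of 5% under any alternative. Of 400 log2 fold changes of members under the alternatives, 33 changed direction, with 0 of them past the threshold. These counts hold the female fit without F1/proestrus 5 more than once, since leaving out male 5 as well does not change it. Between the female groups, series 1 alone gave 0.36 for *P2rx3* and -0.060 for *P2rx5*, series 2 alone gave -0.045 for *P2rx4* and -0.032 for *P2rx7*, and leaving out F1/proestrus 5 gave 0.23 for *P2rx3*, 0.019 for *P2rx6* and 0.032 for *Panx1*. For males against females, series 1 alone gave -0.19 for *P2rx1*, 0.17 for *P2rx3*, -0.032 for *P2rx4*, 0.058 for *P2rx5* and -0.020 for *P2rx7*, and DESeq2 gave 0.048 for *P2rx3*. Leaving out F1/proestrus 5 and male 5 gave -0.21 for *P2rx1*, 0.058 for *P2rx3* and -0.0011 for *P2rx4*. Males against F1/proestrus alone gave -0.034 for *P2rx2*, and against F2/metestrus alone -0.013 for *P2rx7*.

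Leaving out each sample in turn gave, between the female groups, -2.43 to 0.23 for *P2rx3*, -0.0056 to 0.041 for *P2rx4*, -0.079 to 0.019 for *P2rx6* and -0.14 to 0.032 for *Panx1*. Between the sexes it gave -0.26 to 0.87 for *P2rx1*, -1.62 to 0.060 for *P2rx3*, -0.024 to 0.049 for *P2rx4*, -0.027 to 0.054 for *P2rx7* and -0.070 to 0.018 for *Panx1*. Without male 5 *P2rx1* had -0.26.

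The number of genes called between the sexes was 49 (37 higher and 12 lower in males). It was 166 with DESeq2 (105 and 61), 133 with the series as a covariate (96 and 37), 16 in series 1 (9 and 7), 13 in series 2 (6 and 7), 13 against F1/proestrus alone (6 and 7), 22 against F2/metestrus alone (14 and 8) and 30 without F1/proestrus 5 and male 5 (20 and 10). Leaving out 1 sample gave 25 (without male 5) to 77 (without F1/proestrus 5), and 30 without male 4. Between the female groups DESeq2 called 2 genes, and all other settings, each sample left out included, called 0. The cause of these shifts was not tested.

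The replicate numbers are shared by the groups, but same-numbered samples correlated at -0.105 to 0.228 only, and 4 of 18 pairs correlated best with their own number. With the number as a block 112 genes were called between the sexes (81 and 31), *P2ry1* among them, as with the series as a covariate. The correlation of *P2rx4* with microglial markers was 0.57 in series 1, 0.53 in series 2 and 0.56 by Spearman's rho without the 2 farthest samples. That of *P2rx3* with sensory ganglion markers was 0.35 without the 2 farthest samples, 0.99 in series 2 and 0.46 by Spearman's rho. In series 1 the rho of *P2rx3* was 0.77. None of these passed the threshold after adjustment. Depth limits *P2rx1*, with 6 to 28 counts in 17 samples.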
